A study of Mus musculus with 10 samples.

Results

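The basement membrane collagen genes described here are the 8 chains Col4a1, Col4a2, Col4a3, Col4a4, Col4a5, Col4a6, Col15a1 and Col18a1, chosen by symbol from the 40690 genes of the count table. All 8 were among the 13622 genes with enough counts to be tested. They were measured by RNA-seq of polyadenylated RNA from the ventricles of 5 sham-operated mice, which had had the control surgery of an ischemia-reperfusion study without a stated time of collection, and of 5 naive mice without any operation. All 10 were male C57BL/6 mice aged 10 weeks, and the labels record no genetic change in either group. The comparison asks how far the operation itself goes with a different ventricular transcriptome.

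Basement membranes are the thin sheets of matrix that surround every heart muscle cell and underlie the endothelium of capillaries. Collagen IV gives them their covalent network: the chains coded by Col4a1 and Col4a2 build the common protomer, those of Col4a3, Col4a4 and Col4a5 a second one known best from the kidney filter, and those of Col4a5 and Col4a6 another found under some epithelia and around smooth muscle. Collagens XV and XVIII are proteoglycans with interrupted triple helices that sit at basement membranes, collagen XV mostly on the side of the fibrillar matrix, and proteases release the endothelial inhibitor endostatin from the end of collagen XVIII. Loss of collagen XV in mice is known to give a mild muscle and heart disorder, and mutations of Col4a1 cause bleeding from small vessels.

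The collagen IV genes lie head to head in pairs on opposite strands. On GRCm38, Col4a1 (chromosome 8, 11198423 to 11312826, minus strand) and Col4a2 (chromosome 8, 11312805 to 11449287, plus strand) overlap at their starts by 22 exon bases. Col4a4 (chromosome 1, 82448423 to 82586849, minus strand) starts 72 bases from Col4a3 (chromosome 1, 82586921 to 82722059, plus strand). Col4a6 (chromosome X, 141165403 to 141474076, minus strand) starts 1309 bases from Col4a5 (chromosome X, 141475385 to 141689234, plus strand). Col15a1 lies alone on chromosome 4 (47208161 to 47313167, plus strand) and Col18a1 on chromosome 10 (77052178 to 77166548, minus strand).

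The windows of 300 bases around the start sites of Col4a1 and Col4a2 are shown because these chains kept nearly the same ratio in every library. That of Col4a4 is shown for the pair that was lower in sham ventricles, and both windows of Col18a1 for the chain with the largest change. They were taken from RefSeq on GRCm38.p6, which held a window for 7 of the 8 chains; Col4a3 had none. Each is written 5′ to 3′ on the strand of its gene, and capitals mark matches on either strand to the GC box GGGCGG, the CCAAT box, the TATA element TATAAA, the AP-1 site TGACTCA, the SMAD element CAGAC or the hypoxia element core ACGTG.
Col4a1 (chr8:11312777-11313076, minus strand): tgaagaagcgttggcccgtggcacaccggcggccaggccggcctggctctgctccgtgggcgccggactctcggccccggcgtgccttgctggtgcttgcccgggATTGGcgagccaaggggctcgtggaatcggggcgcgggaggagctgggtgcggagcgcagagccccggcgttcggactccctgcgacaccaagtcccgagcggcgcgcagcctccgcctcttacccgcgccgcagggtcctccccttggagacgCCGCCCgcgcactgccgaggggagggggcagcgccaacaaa
Col4a2 (chr8:11312555-11312854, plus strand): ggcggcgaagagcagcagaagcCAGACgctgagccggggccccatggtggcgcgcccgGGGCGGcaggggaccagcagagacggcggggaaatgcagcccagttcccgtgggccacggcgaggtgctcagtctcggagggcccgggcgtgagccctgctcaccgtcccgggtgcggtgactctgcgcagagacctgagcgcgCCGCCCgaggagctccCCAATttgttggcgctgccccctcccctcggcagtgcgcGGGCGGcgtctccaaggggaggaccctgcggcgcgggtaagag
Col4a4 (chr1:82586800-82587099, minus strand): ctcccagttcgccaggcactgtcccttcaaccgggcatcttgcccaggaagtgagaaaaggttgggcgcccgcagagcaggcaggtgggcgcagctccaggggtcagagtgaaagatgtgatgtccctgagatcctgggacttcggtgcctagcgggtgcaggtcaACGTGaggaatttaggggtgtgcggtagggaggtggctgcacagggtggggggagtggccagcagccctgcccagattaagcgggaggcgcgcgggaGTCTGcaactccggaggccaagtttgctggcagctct
Col18a1, upstream start (chr10:77166481-77166780, minus strand): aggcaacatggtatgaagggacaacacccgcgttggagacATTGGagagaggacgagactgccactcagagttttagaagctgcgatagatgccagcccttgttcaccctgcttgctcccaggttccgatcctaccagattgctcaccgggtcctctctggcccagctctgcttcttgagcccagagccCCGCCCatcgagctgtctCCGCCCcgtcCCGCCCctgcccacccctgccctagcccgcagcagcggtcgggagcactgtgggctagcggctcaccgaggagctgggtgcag
Col18a1, downstream start (chr10:77113656-77113955, minus strand): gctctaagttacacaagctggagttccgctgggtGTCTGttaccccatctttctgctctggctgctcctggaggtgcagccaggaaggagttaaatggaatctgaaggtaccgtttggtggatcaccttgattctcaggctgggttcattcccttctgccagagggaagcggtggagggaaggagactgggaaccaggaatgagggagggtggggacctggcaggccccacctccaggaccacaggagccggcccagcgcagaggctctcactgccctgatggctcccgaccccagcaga

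The Col4a1 window held 1 GGGCGG and 1 CCAAT match, and the Col4a2 window 3 GGGCGG, 1 CCAAT and 1 CAGAC match. The windows of Col4a1 and Col4a2 overlap on the chromosome. The GGGCGG match of Col4a1 is the same site as the last GGGCGG match of Col4a2, read from the other strand. The upstream window of Col18a1 held 3 GGGCGG and 1 CCAAT match, whereas its downstream window held only 1 CAGAC match. The Col4a4 window held 1 CAGAC and 1 ACGTG match. None of the 8 windows of the 7 chains held TATAAA or TGACTCA. Over all 32851 promoter windows of this table, GGGCGG was found in 35.7%, CCAAT in 37.4%, TATAAA in 13.6%, TGACTCA in 5.20%, CAGAC in 49.6% and ACGTG in 19.6%. GC content was 74.0% for Col4a1 and 73.7% for Col4a2, against 63.3% for Col4a4 and for the upstream window of Col18a1. It was 59.7% for the downstream window of Col18a1, 52.7% for Col4a5, 52.3% for Col15a1 and 48.3% for Col4a6. The counts are per gene, so reads from the start sites of Col18a1 could not be told apart.

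In sham ventricles 4 of the 8 chains were higher than in naive ventricles, 2 were lower and 2 did not pass the test. Col18a1 rose most, 3.21-fold, followed by Col15a1 at 1.55-fold and the main collagen IV chains at 1.37-fold for Col4a1 and 1.32-fold for Col4a2. Among the minor chains, Col4a3 fell to 0.601 and Col4a4 to 0.740 of the naive level. Col4a5 and Col4a6 were at 0.931 and 1.27 of it and did not pass. Calls were made with edgeR's quasi-likelihood F test over all tested genes, at a Benjamini-Hochberg adjusted p under 0.05. By that rule 17.2% of all tested genes were higher and 15.5% lower, 32.7% in all, with a median log2 fold change of -0.05. Scaled by library size alone, which moved that median to 0.22, 4473 genes were higher and 283 lower, against 2342 and 2113 with TMM factors. The 6 called chains kept their direction under that scaling too, but Col4a4 then did not pass. In this bulk tissue, fewer cells of a type and less RNA per cell cannot be told apart.

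**Figure D1:**
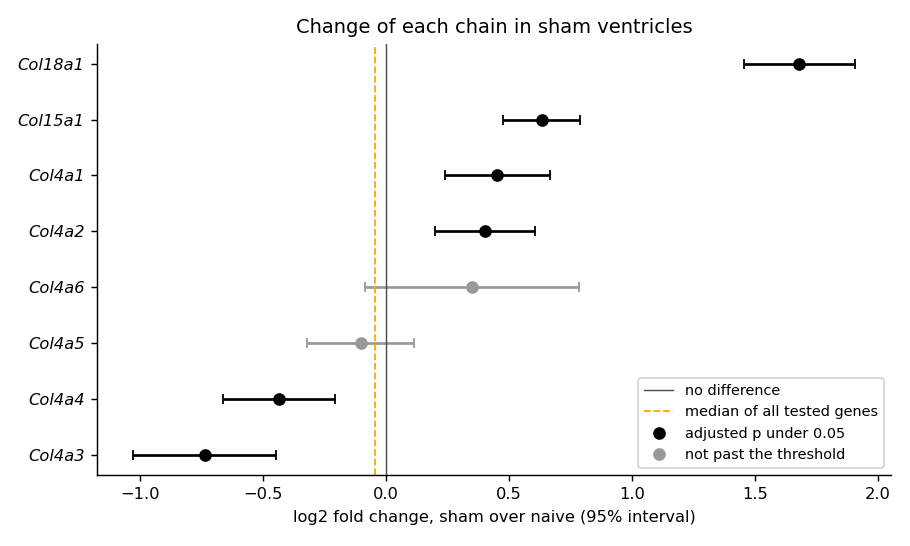
Log2 fold change of each chain, sham over naive, with an approximate 95% interval from the standard error derived from the F statistic (n = 5 libraries each). Black points passed an adjusted p under 0.05 and grey points did not, the dashed line is the median of all tested genes (-0.05), and Col18a1 at 1.68 stands apart from the other chains.

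Total counts ran from 10654107 to 21537135 in sham libraries and from 9683181 to 17577906 in naive libraries. For scale, 3 counts correspond to 0.139 CPM at the greatest depth and 0.310 CPM at the smallest, as counting error alone. Even the scarcest chain, Col4a6, had 35 to 62 counts in sham and 18 to 39 in naive libraries, and Col4a1 had 22657 to 42634 in sham and 13567 to 21978 in naive libraries. The heart muscle genes that define the tissue were abundant, with Myh6, the main myosin of the adult mouse ventricle, at 30509 ± 2147 CPM in sham and 38652 ± 998 CPM in naive libraries (SD, n = 5). Nothing in the labels ties a library to a named animal, and p-values cover only the spread among these 10 samples, which may be technical in part.

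Col4a1 and Col4a2 code for the chains of the ubiquitous collagen IV network and were the most abundant of the family. Col4a1 stood at 1962, 2293, 2024, 1526 and 1738 CPM in sham libraries 1 to 5, against 1614, 1352, 1356, 1362 and 1288 CPM in naive libraries 1 to 5. Of the sham libraries 4 lay above every naive library, while sham 4 lay below naive 1. The log2 fold change was 0.45 ± 0.11 (SE, n = 5 each, edgeR adjusted p = 0.00448), with 16.8% of tested genes changed further upward. Col4a2 stood at 1695, 2008, 1807, 1449 and 1501 CPM in sham libraries, against 1481, 1309, 1260.3, 1185 and 1168 CPM in naive libraries. Its order of libraries was the same at the overlap, with sham 4 below naive 1 and the other 4 sham libraries above every naive one. Its log2 fold change was 0.40 ± 0.10 (edgeR adjusted p = 0.00746).

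The ratio of Col4a2 to Col4a1 counts varied little. It was 0.864 to 0.950 in sham and 0.870 to 0.968 in naive libraries, a difference of -0.05 ± 0.04 (SE) in the mean log2 ratio (exact two-sided permutation p = 0.214, also 0.214 after adjustment over the 12 ratios computed). Within the sham group the SD of the log2 ratio was 0.06, where Col4a1 alone varied by 0.22 and Col4a2 by 0.19. In naive libraries the ratio varied by 0.06 and the chains by 0.12 and 0.14. Of all 13622 tested genes, Col4a2 was the one whose centred log2 CPM profile over the 10 libraries lay closest to that of Col4a1, and Col4a1 closest to Col4a2, at a root mean square difference of 0.06. These profiles share libraries and scaling, so the likeness is a description. Next in likeness to Col4a1 came Golim4, a Golgi membrane protein, at 0.08 and the amyloid precursor App at 0.09. For Col4a2 they were Golim4 at 0.06 and Tnks1bp1, a protein that binds tankyrase, at 0.09.

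**Figure D2:**
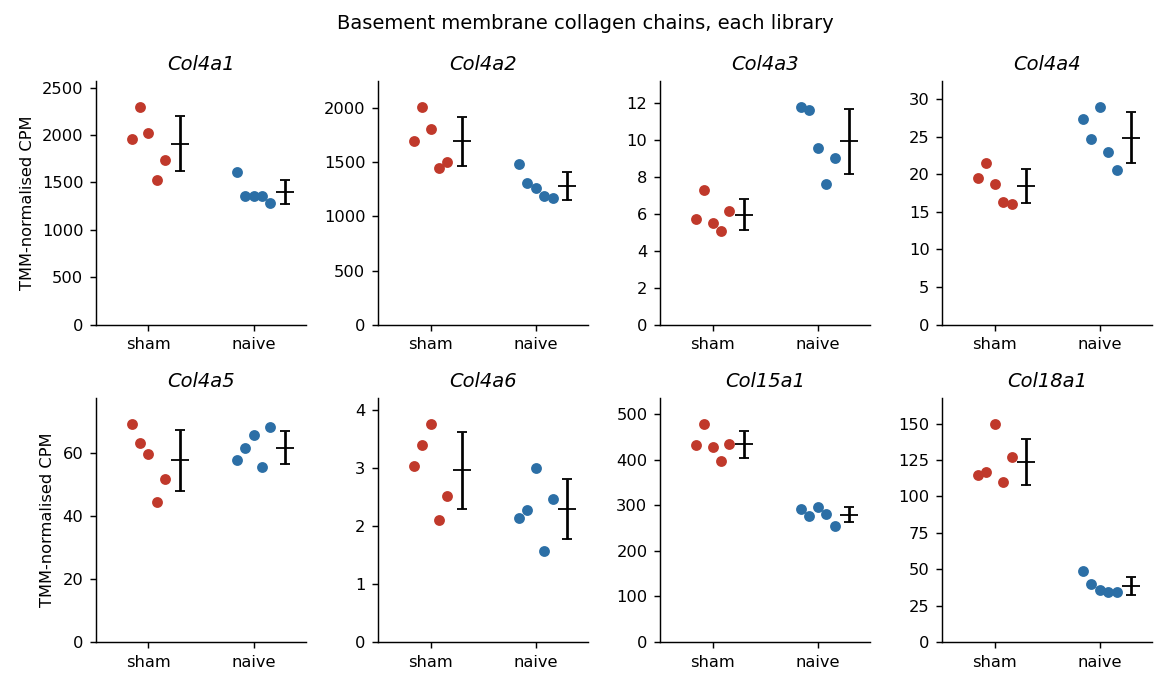
TMM-normalised CPM of each chain in the 5 sham (red) and 5 naive (blue) libraries, in replicate order from left to right, with the mean and SD in black and a separate linear axis from 0 for each chain. In Col15a1 and Col18a1 all 5 sham libraries lie above all 5 naive libraries, and in Col4a3 all 5 lie below.

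Col4a3 and Col4a4 code for chains of the protomer best known from the glomerular basement membrane, and both were scarce in the ventricle. Col4a3 stood at 5.72, 7.29, 5.50, 5.09 and 6.15 CPM in sham libraries, against 11.8, 11.6, 9.56, 7.60 and 9.03 CPM in naive libraries. All 5 sham libraries lay below all 5 naive libraries, as did 9.18% of all tested genes. The log2 fold change of -0.74 ± 0.15 (edgeR adjusted p = 0.00131) placed it low in the transcriptome, with 2.03% of tested genes changed further downward. Its partner Col4a4 stood at 19.5, 21.5, 18.7, 16.3 and 16.1 CPM in sham libraries, against 27.4, 24.7, 28.9, 22.9 and 20.5 CPM in naive libraries. Here 4 sham libraries lay below every naive one, and sham 2 lay above naive 5. The log2 fold change was -0.43 ± 0.12 (edgeR adjusted p = 0.00902). With library size alone it was -0.16 and did not pass (adjusted p = 0.302), whereas Col4a3 kept its call at -0.47 under the same scaling.

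The ratio of Col4a4 to Col4a3 was 2.60 to 3.39 in sham and 2.12 to 3.02 in naive libraries, and the difference of 0.30 ± 0.13 in mean log2 ratio did not pass (exact permutation p = 0.0714, adjusted p = 0.0952). Their profiles lay farther apart than those of Col4a1 and Col4a2, as a description. Ranked by likeness of profile, Col4a4 was number 285 for Col4a3, and Col4a3 number 2179 for Col4a4. Col4a3 had 66 to 189 counts a library, against at least 12449 for Col4a1 and Col4a2, so counting error weighs more in its profile. The part of counting error in the distance was not tested. The nearest profiles to Col4a3 were those of Cacna1g, a T-type calcium channel, Srrm4, a splicing regulator of neural exons, and the phosphatase Dusp8, at root mean square differences of 0.13 to 0.15. Those nearest to Col4a4 were the co-chaperone Dnajb6, the intermediate filament protein Sync of muscle and the ubiquitin-conjugating enzyme Ube2g1, all at 0.08. Of the exon bases of Col4a3, 5.65% overlap the opposite-strand gene C430014B12Rik, whose reads cannot be told apart from its own without strand.

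Col4a5 and Col4a6, which are on the X chromosome, did not pass. Col4a5, a chain of both the kidney-type and the smooth-muscle-type protomer, stood at 69.2, 63.2, 59.8, 44.5 and 52.0 CPM in sham libraries, against 57.7, 61.6, 65.9, 55.6 and 68.3 CPM in naive libraries. The groups overlapped across most of their range, with sham libraries at both extremes. The log2 fold change was -0.10 ± 0.11 (edgeR adjusted p = 0.517), with an approximate 95% interval of -0.32 to 0.12. It turned to 0.16 with library size alone and to 0.0072 without sham 4. Col4a6 stood at 3.03, 3.40, 3.76, 2.098 and 2.53 CPM in sham libraries, against 2.14, 2.28, 3.00, 1.57 and 2.46 CPM in naive libraries. The groups overlapped here as well, and 3 sham libraries lay above every naive one. Its log2 fold change was 0.35 ± 0.22 (edgeR adjusted p = 0.247, approximate 95% interval -0.08 to 0.78), and it passed as higher only with library size alone, at 0.61 (adjusted p = 0.0483).

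Ratios within libraries were tested for the X-linked pair as well. The ratio of Col4a5 to Col4a1 was 0.0276 to 0.0353 in sham and 0.0358 to 0.0530 in naive libraries, so that no sham library reached the naive range. The difference in mean log2 ratio was -0.55 ± 0.12 (exact permutation p = 0.00794, the smallest this design can give, adjusted p = 0.0190). The ratio of Col4a6 to Col4a5 was 0.0444 to 0.0633 in sham and 0.0289 to 0.0461 in naive libraries, a difference of 0.47 ± 0.14 (exact permutation p = 0.0159, adjusted p = 0.0317). A ratio within a library does not depend on the scaling, and it shows unequal change rather than which gene moved. The profiles nearest to Col4a5 were those of Rnf150, Wdr13 and Tmem268, at 0.06 to 0.07, and those nearest to Col4a6 were Magee1, Dlg5 and D030028A08Rik, at 0.15 to 0.16.

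RNA of collagen XV, which bridges basement membranes to the surrounding fibrils, was higher in every sham library. Col15a1 stood at 433, 478, 428, 397 and 435 CPM in sham libraries, against 292, 276, 297, 282 and 254 CPM in naive libraries. No sham library came near the naive range, and the coefficients of variation of 6.69% in sham and 5.92% in naive libraries were the smallest of the 8 chains. The log2 fold change was 0.63 ± 0.08 (edgeR adjusted p = 1.69e-05). Its nearest profiles were those of Fam129b, the endoplasmic reticulum lectin Os9 and Fam149a, at 0.07 to 0.08.

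RNA of collagen XVIII, the source of endostatin, changed most. Col18a1 stood at 115, 117, 149.5, 109.6 and 127 CPM in sham libraries, against 48.9, 39.99, 35.8, 34.3 and 34.3 CPM in naive libraries. The groups were far apart, with each of the 5 sham libraries higher than any naive one, an order that 13.6% of all tested genes shared. The log2 fold change was 1.68 ± 0.11 (edgeR adjusted p = 2.90e-08), with 3.19% of tested genes changed further upward. Its nearest profiles were those of the actin-binding protein drebrin (Dbn1), Marcksl1 and the intermediate filament protein vimentin (Vim), at 0.10 to 0.11, which had log2 fold changes of 1.72, 1.59 and 1.55. Counting both directions, the ranges of sham and naive libraries were separate for 3 of the 8 chains (Col4a3, Col15a1 and Col18a1), against 22.7% of all tested genes.

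The RNAs of collagens XV and XVIII, the multiplexins, rose by different factors. The ratio of Col15a1 to Col18a1 was 2.86 to 4.10 in sham and 5.96 to 8.28 in naive libraries, a difference of -1.05 ± 0.12 in mean log2 ratio (exact permutation p = 0.00794, adjusted p = 0.0190). Col18a1 relative to Col4a1 rose by 1.24 ± 0.12 on the same scale, with no overlap of the groups (exact permutation p = 0.00794, adjusted p = 0.0190). Col15a1 relative to Col4a1 differed by 0.19 ± 0.08, which did not pass after adjustment (exact permutation p = 0.0397, adjusted p = 0.0595). It passed without sham 2 (0.22, exact permutation adjusted p = 0.0408) or without naive 3 (0.22, adjusted p = 0.0476).

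**Figure D3:**
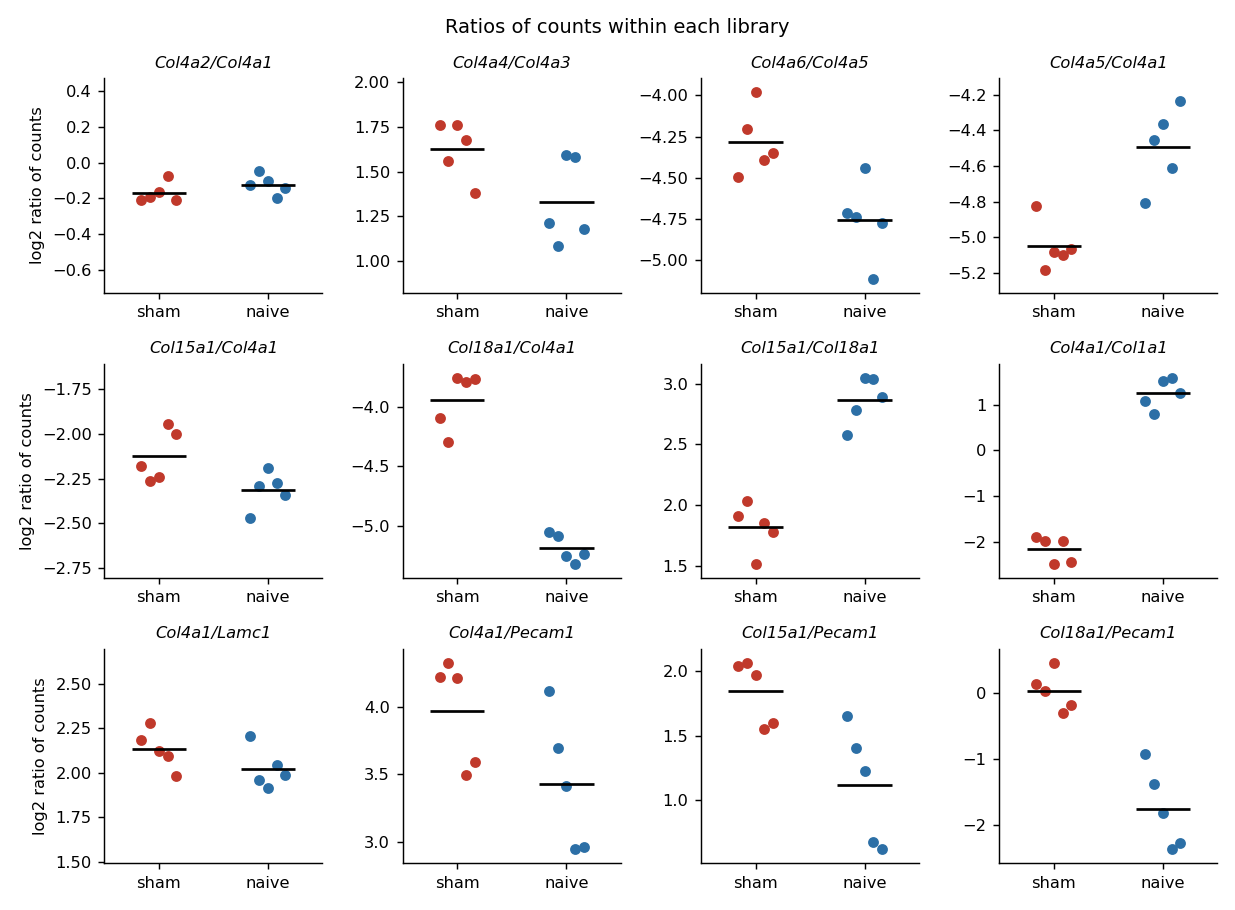
Log2 ratio of counts of the named genes within each of the 5 sham (red) and 5 naive (blue) libraries, in replicate order from left to right, with the group mean as a line and a separate axis for each ratio. Col4a2/Col4a1 stayed between -0.21 and -0.05 in all 10 libraries, whereas Col4a1/Col1a1 was -2.48 to -1.89 in sham and 0.80 to 1.59 in naive libraries.

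Compared per kilobase of merged exons, Col4a1 and Col4a2 were at the top in both groups. In sham libraries they averaged 256 ± 39.0 and 256 ± 34.5 CPM per kb, and in naive libraries 187 ± 16.9 and 194 ± 19.0 CPM per kb (SD, n = 5). Their ranges overlapped in each group. Col15a1 came next, at 68.4 ± 4.57 in sham and 44.1 ± 2.61 CPM per kb in naive libraries. Col18a1 at 17.6 ± 2.26 CPM per kb stood above Col4a5 at 8.59 ± 1.44 in sham libraries, while in naive libraries Col18a1 at 5.50 ± 0.882 CPM per kb stood below Col4a5 at 9.20 ± 0.794. Then followed Col4a4 (1.74 ± 0.215 in sham and 2.34 ± 0.318 in naive libraries), Col4a3 (0.597 ± 0.0845 in sham and 0.995 ± 0.179 in naive libraries) and Col4a6 (0.372 ± 0.0834 in sham and 0.287 ± 0.0652 CPM per kb in naive libraries). Apart from Col4a1 and Col4a2, no neighbours in either order overlapped. Of the summed level of the 6 collagen IV chains per kilobase, Col4a1 and Col4a2 made up 48.9% ± 0.929 and 49.0% ± 1.012 in sham and 47.5% ± 0.992 and 49.2% ± 0.914 in naive libraries. Col4a5 made up 1.65% ± 0.172 in sham and 2.36% ± 0.341 in naive libraries. For Col4a4 the share was 0.333% ± 0.0166 in sham and 0.596% ± 0.0652 in naive libraries, and for Col4a3 0.115% ± 0.0121 in sham and 0.252% ± 0.0333 in naive libraries. Each of the minor chains Col4a3 and Col4a4 thus had separate ranges of share in the groups. These shares are of a sum made up mostly of Col4a1 and Col4a2, which were higher in sham libraries. In CPM the ranges of Col4a4 overlapped.

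Set against the fibrillar collagens, which form the stiff interstitial fibres, the basement membrane chains became a smaller part of the collagen counts in sham libraries. Col1a1, a chain of type I collagen, was at 8598 ± 2031 CPM in sham and 601 ± 156 CPM in naive libraries. The ratio of Col4a1 to Col1a1 was 0.180 to 0.271 in sham and 1.74 to 3.02 in naive libraries, a difference of -3.40 ± 0.19 in mean log2 ratio (exact permutation p = 0.00794, adjusted p = 0.0190). Of the counts on all 44 collagen genes, the 8 basement membrane chains took 16.2% ± 2.04 in sham and 55.4% ± 2.91 in naive libraries. Col4a1 and Col4a2 together took 13.7% ± 1.74 in sham and 47.9% ± 2.31 in naive libraries. Col15a1 took 1.67% ± 0.270 in sham and 5.04% ± 0.548 in naive libraries, and Col18a1 0.471% ± 0.0579 in sham and 0.687% ± 0.0297 in naive libraries. The mean share of Col18a1 was lower in sham and its CPM higher, with a collagen total of 19751 to 33667 CPM in sham and 5037 to 6608 CPM in naive libraries. Fibrillar collagens took 77.4% ± 2.94 in sham and 33.6% ± 3.51 in naive libraries.

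**Figure D4:**
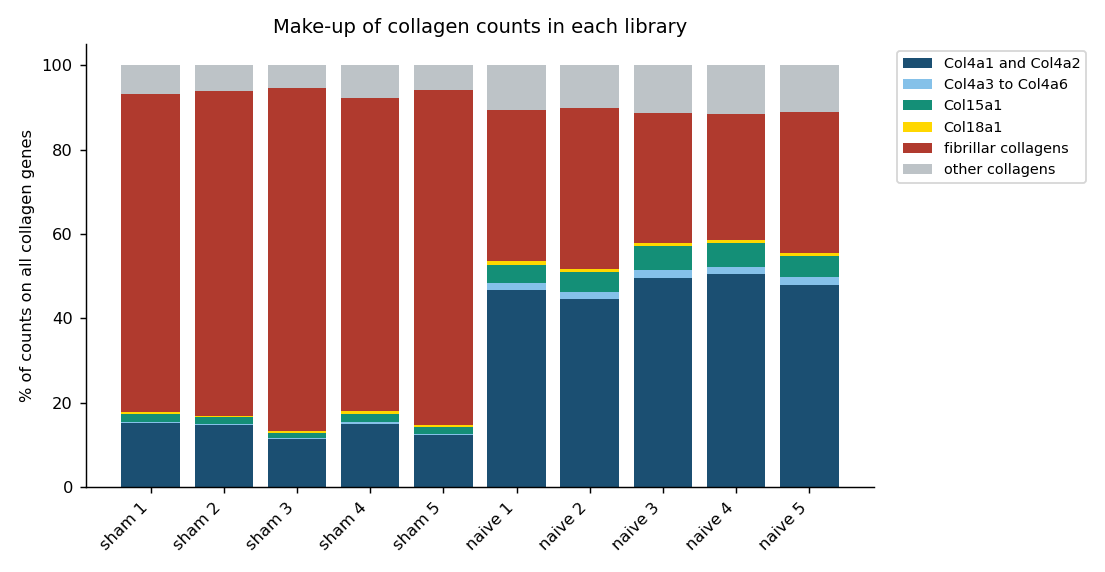
Share of the counts on all 44 collagen genes, in percent, that fell on each set of chains in each sham and naive library. The 8 basement membrane chains took 13.4% to 18.0% in sham and 51.6% to 58.6% in naive libraries.

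The 36 tested collagen genes were ordered by log2 fold change, highest first. Col18a1 was number 13, Col15a1 number 21, Col4a1 number 22 and Col4a2 number 23, and Col4a3 was last. Among all tested genes 17.2% were higher and 15.5% lower, with a median of -0.05. Of the 28 tested collagen genes outside the family, 18 were higher, 1 was lower and 9 did not pass, with a median of 1.39. The 1 lower was Col22a1, a collagen of muscle-tendon junctions, at -0.73 ± 0.26 (adjusted p = 0.0425), named after its values were seen. Type VIII chain Col8a1 (1.69) and type VI chain Col6a3 (1.62), both also named after their values were seen, bracketed Col18a1 in that order.

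Other basement membrane components were called about as often as tested genes at large, of which 17.2% were higher and 15.5% lower. Of 19 tested laminins, nidogens and associated proteins 4 were higher, 3 lower while 12 missed the threshold, at a median of 0.08 in log2 fold change. Sparc, which binds collagen IV and helps its deposition, was at 1670 ± 257 CPM in sham and 512 ± 52.3 CPM in naive libraries, a log2 fold change of 1.70 ± 0.12. Fibulin 1 (Fbln1) rose by 0.52 ± 0.08, nidogen 1 (Nid1), which links laminin to collagen IV, by 0.50 ± 0.11, and Lamc1, the shared gamma chain of most laminins, by 0.34 ± 0.09. The ratio of Col4a1 to Lamc1 was 3.96 to 4.85 in sham and 3.77 to 4.61 in naive libraries, a difference of 0.11 ± 0.07 that did not pass (exact permutation p = 0.159, adjusted p = 0.173).

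Genes that modify, fold and cross-link collagen were called higher more often than tested genes at large, of which 17.2% were higher and 15.5% lower. Of 22 tested, 12 rose, 0 fell and 10 did not pass (median 0.52). The prolyl hydroxylase subunit P4ha3 was at 14.9 ± 2.68 CPM in sham and 0.527 ± 0.176 CPM in naive libraries, and the lysyl oxidase-like enzymes Loxl3 and Loxl1 rose by 2.34 ± 0.15 and 1.37 ± 0.12. Plod3, which hydroxylates and glycosylates collagen lysines, rose by 0.83 ± 0.08. Most of these enzymes act on fibrillar collagens as well. Peroxidasin (Pxdn), which forms the sulfilimine bonds of collagen IV, was at 0.23 ± 0.11 and did not pass (edgeR adjusted p = 0.128). Loxl2 of the same list rose by 1.85 ± 0.29 (edgeR adjusted p = 0.000512). Both were named after their values were seen, Pxdn for its role in those bonds.

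Of 10 tested receptors for basement membrane collagens 2 were higher, 1 was lower and 7 did not pass (median 0.17), a share of calls close to the 32.7% of all tested genes. The integrin subunit Itgb3 rose by 2.08 ± 0.20 and the collagen receptor Ddr2 by 0.45 ± 0.14. Itga1, which with Itgb1 forms the main collagen IV integrin, changed by -0.32 ± 0.12, and Itgb1 was at 0.19 ± 0.07 without passing (edgeR adjusted p = 0.0647). Of 12 tested proteases and inhibitors that act on collagen IV or can release endostatin, 9 were higher, 0 lower and 3 did not pass (median 1.06). Cathepsin S (Ctss) rose by 2.84 ± 0.14 and the membrane metalloproteinase Mmp14 by 2.12 ± 0.12. The gelatinase Mmp2, which cleaves collagen IV, rose by 0.70 ± 0.08, and the inhibitor Timp1 was at 80.4 ± 25.3 CPM in sham and 4.14 ± 1.09 CPM in naive libraries. Of the 10 tested fibrillar collagens 9 were higher, 0 lower and 1 did not pass (median 3.08), with Col5a2 at 2.96 ± 0.14, Col1a2 at 3.32 ± 0.17 and Col3a1 at 3.64 ± 0.20.

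Markers of cell types of the ventricle were read against the 32.7% of all tested genes that were called, 17.2% higher and 15.5% lower. The endothelial and mural lists stood near that share in all, but most of the endothelial calls were lower. Of 16 endothelial markers 1 was higher and 5 were lower (median -0.13), and their summed level was 2364 to 2543 CPM in sham and 2512 to 3029 CPM in naive libraries. Among them Aqp1, a water channel of capillaries, changed by -0.52 ± 0.13 and Cdh5, the endothelial cadherin, by -0.21 ± 0.08, while the co-receptor Eng was at -0.02 ± 0.09 without passing. Of 12 markers of pericytes and smooth muscle 1 was higher and 2 were lower (median -0.02, sum 4713 to 5354 CPM in sham and 5293 to 5950.2 CPM in naive libraries). Desmin (Des), which heart muscle also expresses, made up most of that sum, and the other 11 markers summed to 1140.0 to 1296 CPM in sham and 1054 to 1339 CPM in naive libraries. Of 12 fibroblast markers 8 were higher and 0 lower (median 0.69, sum 10901 to 17843 CPM in sham and 2936 to 3685 CPM in naive libraries), a list that itself holds Col1a1, Col1a2 and Mmp2. Without Col1a1, the most abundant, the other 11 summed to 4898 to 6584 CPM in sham and 2394 to 2926 CPM in naive libraries. Col1a2 among those was at 3159 ± 730 CPM in sham and 317 ± 61.3 CPM in naive libraries. Gsn, at -0.15 ± 0.10, was among the 4 markers that did not pass. All 10 macrophage markers were higher (median 1.63, sum 1349 to 1673 CPM in sham and 435 to 535 CPM in naive libraries). The part of these cell types in the higher Col4a1, Col4a2, Col15a1 and Col18a1 was not tested.

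Heart muscle markers were mostly lower in sham, as Col4a3 and Col4a4 were. Of 12 heart muscle markers 0 were higher and 10 lower (median -0.39, sum 82686 to 93730.2 CPM in sham and 113587 to 116816 CPM in naive libraries). Of 8 tested mesothelial and epithelial markers 0 were higher and 3 lower (median -0.18, sum 22.9 to 36.8 CPM in sham and 43.0 to 65.5 CPM in naive libraries), with Upk3b, a marker of the heart's outer lining, at -1.88 ± 0.22. Muc16 of that list was not analysed here. Of 5 tested lymphatic markers 0 were higher and 1 lower (median -0.30, sum 125 to 183 CPM in sham and 179.5 to 219.8 CPM in naive libraries), and Pdpn had 0 counts in all 10 libraries. The lower member was Prox1, at 71.8 ± 16.2 CPM in sham and 116 ± 18.8 CPM in naive libraries, and the other 6 markers summed to 77.1 to 95.6 CPM in sham and 73.4 to 92.3 CPM in naive libraries. Of 6 tested Schwann cell and nerve markers 2 were higher and 0 lower (median -0.09, sum 28.6 to 52.6 CPM in sham and 23.1 to 32.4 CPM in naive libraries). Of all tested genes 17.2% were higher and 15.5% lower, 32.7% in all. The mesothelial and the Schwann cell lists were called at near that share in all, each in a single direction. The part of these cell types in the lower Col4a3 and Col4a4 was not tested.

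Relative to the endothelial adhesion molecule Pecam1 within each library, Col18a1 and Col15a1 were higher. The ratio of Col18a1 to Pecam1 was 0.811 to 1.37 in sham and 0.194 to 0.527 in naive libraries, a difference of 1.78 ± 0.30 in mean log2 ratio (exact permutation p = 0.00794, adjusted p = 0.0190). That of Col15a1 to Pecam1 was 2.93 to 4.19 in sham and 1.53 to 3.14 in naive libraries, a difference of 0.73 ± 0.23 (exact permutation p = 0.0238, adjusted p = 0.0408). It did not pass without sham 1, 2, 3 or 5 or without naive 4 or 5, with exact permutation adjusted p-values of 0.0544 to 0.0816 and differences of 0.61 to 0.80. The ratio of Col4a1 to Pecam1 was 11.3 to 20.1 in sham and 7.71 to 17.4 in naive libraries, and its difference of 0.54 ± 0.28 did not pass (exact permutation p = 0.0873, adjusted p = 0.105). Pecam1 itself stood at 121 ± 17.2 CPM in sham and 133 ± 36.9 CPM in naive libraries.

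**Figure D5:**
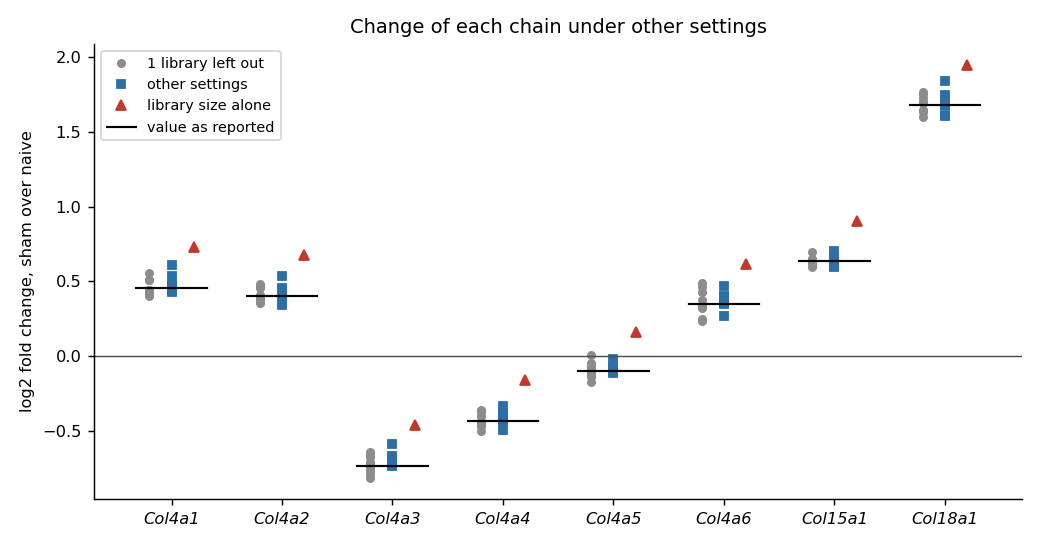
Log2 fold change of each chain, sham over naive, as reported (black line), with 1 library left out (grey circles), with library size alone as the scaling (red triangles) and under the other settings (blue squares). The triangles lie above the lines for every chain, and only Col4a5 has values on both sides of 0.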

How the data were processed

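Ventricular poly(A) RNA of 5 sham-operated and 5 naive mice was sequenced single-end without strand information, per the labels' protocols. The deposited table holds raw HTSeq counts for Ensembl genes on GRCm38, per the file headers, with each library in its own column and no normalisation. The submitters' processing notes name Bowtie2, TopHat2 2.1.1, HTSeq, DESeq and edgeR and give no roles. The annotation release and counting mode were not given in the sources used here. A deposited column of GC content in percent served a GC correction alone.

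Of 41264 rows, 574 were repeats of a gene identifier with the same counts and were dropped; 40690 genes remained, and 0 rows lacked a gene. Between libraries of the same group, the smallest chi-square per degree of freedom was 9.20, so none was a duplicate. Genes were kept by filterByExpr (minimum count 10, minimum total 15), scaled with TMM factors and tested with edgeR 4.0.16 (quasi-likelihood F test, robust, group alone) in R 4.3.3, with Benjamini-Hochberg adjustment over all 13622 tested genes. Standard errors were obtained as |log2 fold change| divided by √F. CPM values are TMM-normalised, given as mean ± SD. The test was also tested on simulated data. For 12 ratios of counts (0.5 added) within a library, the difference of mean log2 ratio was tested by exact two-sided permutation of the group labels (252 assignments).

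GENCODE M21, which uses the GRCm38 build, gave coordinates and merged exon lengths. Stretches of 50 bases shared with transcripts of another gene made up 4.66% of those in Col4a3 transcripts (all shared with C430014B12Rik), 0.0758% in Col4a4 and 0 in the other 6 chains. The chains, the 5 pathway lists, the 8 marker lists and the tests were chosen with earlier results of these data known. The genes named are the 8 chains, the genes in the ratios, the 3 nearest profiles of each chain, the 4 members of smallest p of each pathway list and some of the 3 most abundant of each marker list; exceptions are stated. Alternatives were DESeq2 1.42.0, limma 3.58.1 (voom with sample weights), scaling by RLE factors, by the upper quartile or by library size alone, filters of none or of 1 CPM in 5 libraries, no robust estimation, a GC correction, the replicate number as a block, each library left out in turn, and naive 1 and sham 4 left out together. Ratios were also taken with 1 or 0.1 counts added. Protein sequences were not used here.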

Additional observations from a re-analysis of the deposited data

Results flagged for a closer look

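Of 40 groups of 5 values (the CPM of the 8 chains and the 12 log2 ratios, in sham and in naive libraries), 1 had a library set apart from the others by a gap large against the group's range. Col4a1 was at 1614 CPM in naive 1, where the other 4 naive libraries were at 1288 to 1362 CPM. Chance sets apart about 1 in 20 such groups. Without naive 1 the log2 fold change of Col4a1 was 0.51, against 0.45 with it, and it passed in both cases (edgeR adjusted p = 0.00198 without it).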

How the results depend on the processing

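The log2 fold changes of Col4a1, Col4a2, Col4a3, Col15a1 and Col18a1 kept their direction and their call under all 22 alternatives, at 0.40 to 0.73, 0.34 to 0.67, -0.82 to -0.47, 0.60 to 0.90 and 1.60 to 1.95. With library size alone 1 chain was lower in place of 2, with Col4a4 at -0.16, Col4a5 at 0.16 and Col4a6 at 0.61, since that scaling moved the median of all tested genes from -0.05 to 0.22. With 1 library left out Col4a5 ran from -0.18 to 0.0072, and the difference in mean log2 ratio from 0.61 to 0.87 for Col15a1/Pecam1 and from 0.14 to 0.22 for Col15a1/Col4a1. The labels do not say that same-numbered sham and naive libraries belong together, and their deviations correlated at 0.00801 to 0.293 across genes. Of the 5 sham libraries 3 correlated best with their own number, a hint from the data and not the design, and not every pair exceeded 0.1, so the numbers were not used as pairs. With the replicate block the gene test changed no call of a chain and called 2592 genes higher and 2801 lower. For ratios the block is a sign-flip test of 5 differences, which cannot go below an exact p of 0.0625, so the 7 that passed could not: Col4a6/Col4a5 (0.47), Col4a5/Col4a1 (-0.55), Col18a1/Col4a1 (1.24), Col15a1/Col18a1 (-1.05), Col4a1/Col1a1 (-3.40), Col15a1/Pecam1 (0.73) and Col18a1/Pecam1 (1.78). Without naive 1 and sham 4 together the same 7 were at 0.51, -0.62, 1.23, -1.13, -3.48, 0.94 and 2.07 and did not pass after adjustment, in a design of 4 against 4 whose smallest exact p is 0.0286. Col4a6, with 18 to 62 counts a library, is the chain whose value depth limits most.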
